A study of Mus musculus with 12 samples.

Results

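The 9 genes described here encode components, a regulator and receptors of the complement system, and were taken by gene symbol from the 25556 genes of the joined read tables. They are C1qa, C1qb, C1qc, C1ra, C4b, C3, Serping1, C3ar1 and C5ar1, and all 9 had enough reads to be among the 17208 genes tested. RNA was sequenced from brain tissue of male C57BL6 mice, an inbred laboratory strain, in 12 libraries that form 4 groups of 3. Every group received daily intraperitoneal injections during adolescence, from postnatal day 30 to 44, and a single treatment as adults at day 70, with brains taken 24 h after it. The adolescent injection was THC (tetrahydrocannabinol, the psychoactive cannabinoid of the cannabis plant) at 5 mg/kg, or its vehicle of 8% Tween-80 in saline. The adult injection was LPS (lipopolysaccharide, a component of the outer membrane of Gram-negative bacteria that sets off an innate immune response) at 0.33 mg/kg by the same route, or saline. Veh_Ctrl denotes vehicle then saline, THC_Ctrl THC then saline, Veh_LPS vehicle then LPS, and THC_LPS THC then LPS. The brain region is not given in the sources used here. Nothing in the labels ties each library to its own animal, so the p-values measure only the spread among these samples, and some of that spread may be technical.

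Complement is a cascade of blood and tissue proteins that tags targets for removal and recruits immune cells. In its classical pathway C1q, a recognition protein built from the A, B and C chains encoded by C1qa, C1qb and C1qc, binds a target and activates the attached proteases C1r and C1s, which cleave C4 and, through the enzyme that follows, C3. The small fragments released from C3 and C5 act on the receptors encoded by C3ar1 and C5ar1. In the brain, microglia, the resident macrophages, are the main source of C1q, and C1q and C3 are known to tag synapses for removal by microglia.

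Libraries held 24.3 to 26.4 M gene reads (Veh_Ctrl), 24.7 to 25.6 M (THC_Ctrl), 16.7 to 22.4 M (THC_LPS) and 25.5 to 44.7 M (Veh_LPS). Summed markers of neurons (2167 to 3454 CPM, the read count per M reads of the library after TMM scaling), astrocytes (4001 to 5165 CPM) and oligodendrocytes (3344 to 4978 CPM) were high in every library, as the tissue label says. Of the 12 libraries, 2 stood apart. In THC_LPS replicate 3, gene levels relative to the other libraries had a Spearman correlation of -0.75 with GC content, against -0.11 to 0.28 elsewhere. In Veh_LPS replicate 2, the pituitary hormone genes Gh, Prl and Pomc summed to 4134 CPM, against at most 14.7 CPM elsewhere. Values without these libraries stand beside the comparisons they enter.

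C1qa, C1qb and C1qc lie next to each other on the minus strand of chromosome 4 within 18.7 kb (mm10, chr4:136880129-136898803). C1qb (ENSMUSG00000036905) spans chr4:136880129-136886187, C1qc (ENSMUSG00000036896) chr4:136889804-136893065 and C1qa (ENSMUSG00000036887) chr4:136895917-136898803. C4b (ENSMUSG00000073418, chr17:34728380-34743882) and C3 (ENSMUSG00000024164, chr17:57203970-57228136) are both on the minus strand of chromosome 17. Serping1 (ENSMUSG00000023224) spans chr2:84765387-84775444, C5ar1 (ENSMUSG00000049130) chr7:16246743-16259540 and C3ar1 (ENSMUSG00000040552) chr6:122847138-122856161, all on the minus strand. C1ra (ENSMUSG00000055172, chr6:124512632-124523440) is the only member on the plus strand. Of the 50-base stretches of the C4b transcript, 35.2% also occur in its paralog C4a, and of those of C1ra 50.8% occur in other genes, 48.0% in its paralog C1rb, so reads of these genes could have been split or dropped. The other 7 members shared no such stretch with another gene.

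Promoter sequence from RefSeq (GRCm38.p6, the assembly that mm10 names) was at hand for 6 of the 9 members, and the 4 of those whose reads passed the test for LPS after vehicle are printed to show what precedes the genes that rose together. Each runs 5′ to 3′ on the gene's strand, from 250 bases before to 50 after the RefSeq start, and capitals mark matches to the motifs searched on both strands. The C1qb window is chr4:136886151-136886450, that of C1qc chr4:136892865-136893164, that of C3 chr17:57228087-57228386 and that of C5ar1 chr7:16259289-16259588, all on the minus strand.
C1qb: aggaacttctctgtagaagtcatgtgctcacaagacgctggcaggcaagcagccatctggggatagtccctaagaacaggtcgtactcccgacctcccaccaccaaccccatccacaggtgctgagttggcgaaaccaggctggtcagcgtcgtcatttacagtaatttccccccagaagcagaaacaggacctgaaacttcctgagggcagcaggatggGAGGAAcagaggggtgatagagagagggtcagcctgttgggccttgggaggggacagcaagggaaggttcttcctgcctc
C1qc: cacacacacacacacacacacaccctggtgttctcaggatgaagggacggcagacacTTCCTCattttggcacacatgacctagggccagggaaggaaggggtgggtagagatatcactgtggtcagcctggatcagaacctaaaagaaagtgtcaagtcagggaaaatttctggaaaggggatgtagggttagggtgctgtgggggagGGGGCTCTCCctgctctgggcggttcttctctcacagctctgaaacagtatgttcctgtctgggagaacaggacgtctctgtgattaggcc
C3: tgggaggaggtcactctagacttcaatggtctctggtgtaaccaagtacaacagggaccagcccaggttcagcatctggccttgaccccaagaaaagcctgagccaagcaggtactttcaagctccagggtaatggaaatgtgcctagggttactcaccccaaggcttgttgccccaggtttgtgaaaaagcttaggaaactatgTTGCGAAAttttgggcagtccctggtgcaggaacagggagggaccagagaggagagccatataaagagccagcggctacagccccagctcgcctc
C5ar1: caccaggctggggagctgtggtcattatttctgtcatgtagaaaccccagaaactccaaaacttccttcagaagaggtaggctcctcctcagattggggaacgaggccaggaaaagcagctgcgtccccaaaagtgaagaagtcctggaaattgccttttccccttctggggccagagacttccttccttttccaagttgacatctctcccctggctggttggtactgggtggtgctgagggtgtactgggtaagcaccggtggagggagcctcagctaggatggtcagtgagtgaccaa
C1qb and C1qc each held 1 core of PU.1, a transcription factor of macrophages (GAGGAA on either strand), which occurs in 28.3% of 32851 mouse promoters of the same length. C1qc also held 1 NF-kB consensus match (4.51% of promoters), and C3 held 1 C/EBP match (TTGCNNAA, 10.8% of promoters). The interferon-stimulated response element (GAAA, any 2 bases, then GAAA again; 3.44% of promoters) and the interferon-gamma activated site (TTCNNNGAA, 8.3%) were searched too and had no match in these 4 windows, and the C5ar1 window had no match to any of the 5 motifs. The windows of C1ra and C3ar1, which were not called, were searched but are not printed. That of C1ra held a PU.1 core, an interferon-gamma activated site and a C/EBP match, and that of C3ar1 held no match. No capitals of different motifs overlap, and a match describes letters only.

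On the length-scaled FPKM scale of the authors (reads scaled to gene length and library total), which allows levels of different genes to be set side by side, the C1q genes were by far the most abundant members. In Veh_Ctrl, C1qa stood at 36.0 ± 3.4 FPKM, C1qb at 29.4 ± 0.80 and C1qc at 19.4 ± 0.28 (SD, n = 3), and the ranges of the 3 genes did not overlap. Serping1 (5.10 ± 0.52 FPKM) and C4b (4.59 ± 0.76 FPKM) followed and did not differ beyond their spread. C1ra (0.438 ± 0.20 FPKM) and C3ar1 (0.428 ± 0.044 FPKM) came next and overlapped, and C5ar1 (0.225 ± 0.058 FPKM) and C3 (0.151 ± 0.098 FPKM) were the lowest and overlapped each other. In Veh_LPS the order among the lower genes was different: C4b (13.5 ± 2.4 FPKM) lay above Serping1 (7.91 ± 1.8), and C3 (1.13 ± 0.63), C1ra (1.05 ± 0.36), C5ar1 (0.997 ± 0.39) and C3ar1 (0.863 ± 0.19) overlapped one another.

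**Figure D1:**
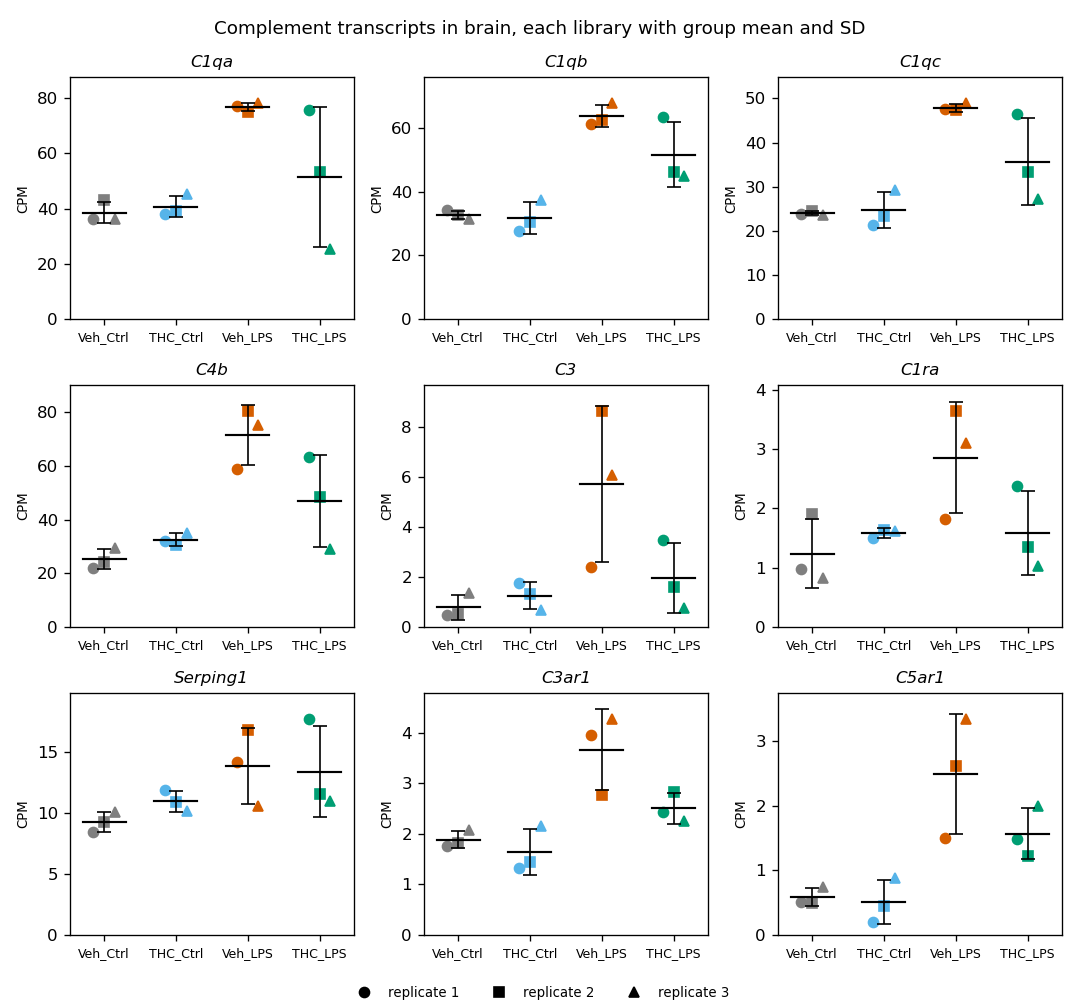
Level of each of the 9 genes in every library, in CPM (reads per M library reads after TMM scaling; vertical axis, a separate scale for each gene), by group (horizontal axis). Points are the 3 libraries of a group, and bars give the mean and SD. All 3 Veh_LPS libraries lie above all 3 Veh_Ctrl libraries for every gene but C1ra, while the THC_LPS points of C1qa spread from 25.3 to 75.7 CPM.

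The first comparison asked how these genes differed 24 h after LPS in mice given vehicle in adolescence. C1qb, C1qc, C4b, C3 and C5ar1 rose, and all 9 fold changes were positive. Calls here are genes with an adjusted p under 0.05 in the quasi-likelihood test of edgeR, adjusted over all tested genes after Benjamini and Hochberg. By this rule 5 of 9 members were higher and 0 lower, where 0.622% of all tested genes were called higher and 0% lower. At an unadjusted p under 0.05 all 9 were higher, against 4.63% of all tested genes. The median log2 fold change was 1.00 over the members and -0.04 over all tested genes. For 8 of 9 members every Veh_LPS library exceeded every Veh_Ctrl library, against 6.96% of all tested genes. Without Veh_LPS replicate 2 edgeR called 3 of 9 members higher, against 0.279% of all tested genes. In these bulk samples more cells of a type and more RNA per cell cannot be told apart.

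The C1q genes had the tightest values. C1qb, the B chain, stood at 34.2, 32.7 and 31.5 CPM in Veh_Ctrl and at 61.2, 62.5 and 67.9 CPM in Veh_LPS. The groups were far apart, and the log2 fold change was 0.96 ± 0.15 (approximate SE; edgeR adjusted p = 0.0043). C1qc, the C chain, stood at 23.9, 24.5 and 23.7 CPM in Veh_Ctrl and at 47.5, 47.3 and 48.9 CPM in Veh_LPS, with no library near the other group, and its log2 fold change was 1.00 ± 0.17 (edgeR adjusted p = 0.00848). C1qa, the A chain, showed the same size of difference, from 36.4, 42.9 and 36.1 CPM to 77.1, 75.0 and 78.1 CPM. Its log2 fold change was 1.00 ± 0.25 and was not called in the fit of all 12 libraries (edgeR adjusted p = 0.126). That fit takes a single spread per gene over all groups, and C1qa ranged from 25.3 to 75.7 CPM within THC_LPS. Without THC_LPS replicate 3 the C1qa log2 fold change was 1.03 (edgeR adjusted p = 0.000244), and with only the Veh_LPS and Veh_Ctrl libraries in the fit it was 1.03 (edgeR adjusted p = 0.000261).

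C1ra encodes a form of the protease C1r, which C1q activates. It stood at 0.981, 1.90 and 0.830 CPM in Veh_Ctrl and at 1.82, 3.64 and 3.10 CPM in Veh_LPS, where the lowest LPS library fell just below the highest control. Its log2 fold change of 1.21 ± 0.37 was not called (edgeR adjusted p = 0.275).

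C4b encodes complement C4, which the activated C1 complex cleaves. C4b stood at 22.2, 24.3 and 29.5 CPM in Veh_Ctrl and at 58.8, 80.5 and 75.4 CPM in Veh_LPS. Every LPS library was well above every control, and the log2 fold change of 1.5 ± 0.22 had the smallest adjusted p among the members (edgeR adjusted p = 0.00273). Reads given to its paralog C4a summed to 118 in Veh_Ctrl and 282 in Veh_LPS over 3 libraries each, against 565 to 710 and 1483 to 3475 per library for C4b.

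C3, the component on which the complement pathways converge, had the largest fold change and the widest spread. It rested on 12, 13 and 33 reads in Veh_Ctrl and on 61, 228 and 281 reads in Veh_LPS, which are 0.471, 0.538 and 1.37 CPM against 2.42, 8.64 and 6.10 CPM. The groups did not overlap, but the lowest LPS library lay closer to the controls than to the other LPS libraries. The log2 fold change was 2.85 ± 0.56 (edgeR adjusted p = 0.0275). Without Veh_LPS replicate 2, the library with pituitary transcripts and the highest C3 level, it was 2.44 and the call was lost (edgeR adjusted p = 0.147). Among the Veh_LPS libraries replicate 2 was also the highest for C4b (80.5 CPM), C1ra (3.64 CPM) and Serping1 (16.8 CPM). The C3 call was also lost without Veh_LPS replicate 3 (edgeR adjusted p = 0.106), Veh_Ctrl replicate 1 (0.227) or Veh_Ctrl replicate 2 (0.199).

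Serping1 encodes the C1 inhibitor, which blocks C1r and C1s. Its levels were 8.44, 9.28 and 10.05 CPM in Veh_Ctrl and 14.2, 16.8 and 10.6 CPM in Veh_LPS. The groups did not overlap, though replicate 3 of Veh_LPS lay just above the controls, and the log2 fold change of 0.58 ± 0.20 was not called (edgeR adjusted p = 0.433). It was the smallest of the 9 fold changes.

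Of the receptors, C5ar1, which binds the C5a fragment and draws in myeloid cells, rose. It rested on 13, 12 and 18 reads in Veh_Ctrl and on 38, 69 and 154 reads in Veh_LPS, or 0.510, 0.497 and 0.747 CPM against 1.51, 2.61 and 3.34 CPM. The groups were separate, and the log2 fold change was 2.10 ± 0.44 (edgeR adjusted p = 0.0383). The C5ar1 call was lost when Veh_LPS replicate 2 (edgeR adjusted p = 0.138) or 3 (0.27), Veh_Ctrl replicate 1 (0.255), 2 (0.229) or 3 (0.0841), or THC_Ctrl replicate 2 (0.0526) was left out. C3ar1, the receptor of the C3a fragment, stood at 1.77, 1.82 and 2.08 CPM in Veh_Ctrl and at 3.96, 2.77 and 4.28 CPM in Veh_LPS. Its groups did not overlap either, but its log2 fold change of 0.96 ± 0.25 was not called (edgeR adjusted p = 0.146).

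Limma-voom with sample weights called 8 of the 9 higher, all but Serping1, against 5.18% of all tested genes. C1qb and C4b were called in each of 24 alternative analyses of this comparison, with log2 fold changes of 0.91 to 1.01 and 1.41 to 1.67. C1qc was called in 21 of the 24, C5ar1 in 17, C3 in 16, C1qa in 9, C3ar1 and C1ra in 1 each and Serping1 in 0. The C1qc call was lost without Veh_Ctrl replicate 1 (edgeR adjusted p = 0.0722), Veh_Ctrl replicate 2 (0.0578) or Veh_LPS replicate 3 (0.0539), at log2 fold changes of 0.98 to 1.01.

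**Figure D2:**
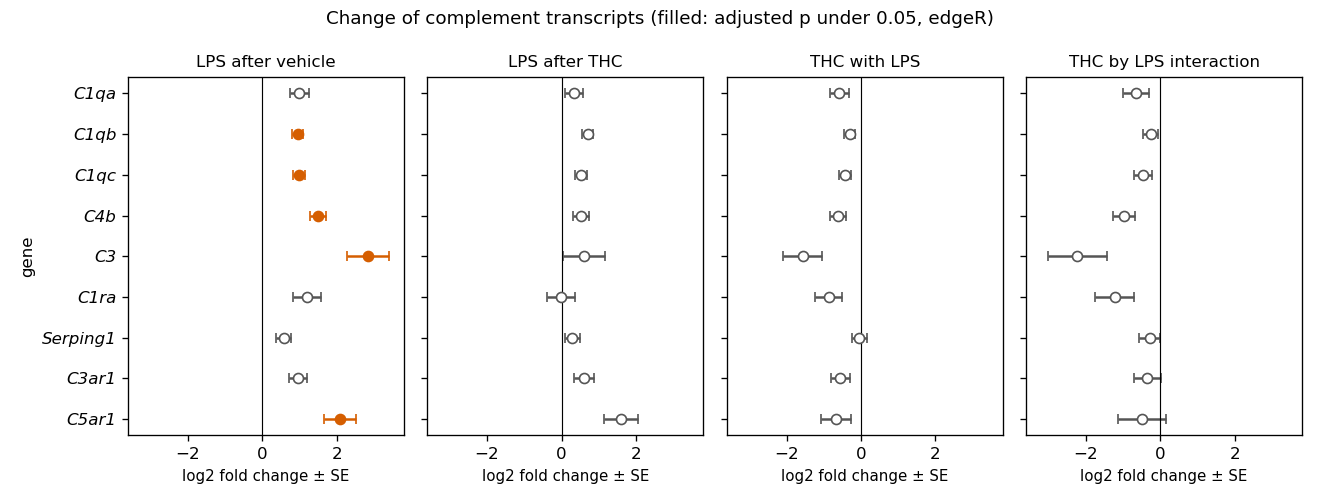
Log2 fold change (horizontal axis) of the 9 genes (vertical axis) for LPS after vehicle, LPS after THC, THC with LPS and the interaction of both treatments, with bars for the approximate SE; filled points passed an edgeR adjusted p of 0.05 over all tested genes. LPS after vehicle lies above 0 for all 9 genes with 5 filled points, LPS after THC has no filled point, and THC with LPS and the interaction lie below 0 with no filled point.

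The second comparison asked the same in mice that had received THC in adolescence. C5ar1 had the largest fold change and C1qb the smallest p, but 0 of 9 members were called by edgeR, where 0.0988% of all tested genes were called higher and 0.0116% lower. At an unadjusted p under 0.05, 5 members were higher (C1qb, C1qc, C4b, C3ar1 and C5ar1) and 0 lower, against 9.78% of all tested genes higher. The median log2 fold change was 0.53 over the members and -0.01 over all tested genes. Every THC_LPS library exceeded every THC_Ctrl library for 3 of the 9, C1qb, C3ar1 and C5ar1, against 9.83% of all tested genes.

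C1qb stood at 27.6, 30.4 and 37.3 CPM in THC_Ctrl and at 63.4, 46.3 and 45.1 CPM in THC_LPS. The groups were separate, and the log2 fold change was 0.70 ± 0.15, which missed the threshold (edgeR adjusted p = 0.0736). C1qc stood at 21.4, 23.4 and 29.3 CPM in THC_Ctrl and at 46.4, 33.4 and 27.1 CPM in THC_LPS, where replicate 3 fell within the control range. Its log2 fold change was 0.53 ± 0.17 (edgeR adjusted p = 0.153). C1qa stood at 38.0, 39.0 and 45.2 CPM in THC_Ctrl and at 75.7, 53.1 and 25.3 CPM in THC_LPS, so that replicate 3 lay below every control and replicates 1 and 2 above. Its log2 fold change was 0.33 ± 0.25 (edgeR adjusted p = 0.47).

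Removing each library's trend of gene level on GC content and gene length gave log2 fold changes of 1.03 for C1qb (edgeR adjusted p = 0.00114) and 0.84 for C1qc (edgeR adjusted p = 0.00317), while C1qa was not called. In that analysis 2 of 9 members were called higher, against 0.976% of all tested genes. Without THC_LPS replicate 3, C1qa (log2 fold change 0.69; edgeR adjusted p = 0.0422) and C1qb (0.82; edgeR adjusted p = 0.0248) were called, against 0.119% of all tested genes, and the members' median log2 fold change was 0.72 in place of 0.53. In that fit C1qc (0.72; edgeR adjusted p = 0.05002), C4b (0.81; 0.0542) and C3 (1.03; 0.419) were not called. DESeq2 called C1qb (adjusted p = 0.00242) and C5ar1 (adjusted p = 0.0438), against 2.08% of all genes it tested, and limma-voom with sample weights called the C1q genes and C4b, against 3.16% of all tested genes. In the authors' deposited table, C1qb was also the member with an adjusted p under 0.05 (0.0497), among 0.857% of the genes listed there, and the other 8 ranged from 0.176 for C5ar1 to 0.996 for C1ra.

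The lower members were as variable. C4b stood at 32.1, 30.5 and 35.2 CPM in THC_Ctrl and at 63.3, 48.6 and 29.0 CPM in THC_LPS, with replicate 3 below the controls (log2 fold change 0.53 ± 0.21; edgeR adjusted p = 0.208). C3 stood at 1.78, 1.31 and 0.692 CPM in THC_Ctrl and at 3.50, 1.62 and 0.782 CPM in THC_LPS, in overlapping groups, and the log2 fold change was 0.61 ± 0.56 (edgeR adjusted p = 0.555). The C3 difference depended on the libraries in the fit. Its log2 fold change was -0.06 without THC_LPS replicate 1, and ran from -0.06 to 1.03 over the 24 alternatives. C1ra was at 1.497, 1.64 and 1.62 CPM in THC_Ctrl and at 2.37, 1.35 and 1.03 CPM in THC_LPS, and these overlapped around a log2 fold change close to 0 (-0.02 ± 0.38; edgeR adjusted p = 0.983), whose sign turned positive under other scalings.

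Serping1, the inhibitor, was at 11.9, 10.9 and 10.2 CPM in THC_Ctrl and at 17.7, 11.5 and 10.9 CPM in THC_LPS, where only replicate 1 lay beyond the controls (log2 fold change 0.28 ± 0.20; edgeR adjusted p = 0.436). C3ar1 was at 1.33, 1.44 and 2.15 CPM in THC_Ctrl and at 2.43, 2.84 and 2.25 CPM in THC_LPS, separate by a narrow margin (log2 fold change 0.61 ± 0.26; edgeR adjusted p = 0.228). C5ar1 was at 0.202, 0.452 and 0.885 CPM in THC_Ctrl, from 5, 11 and 23 reads, and at 1.48, 1.22 and 2.004 CPM in THC_LPS, from 25, 28 and 41 reads. The C5ar1 groups did not overlap, and the log2 fold change was 1.59 ± 0.46 (edgeR adjusted p = 0.136).

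Averaged over both pretreatments, LPS was accompanied by higher levels of 6 of 9 members, where 1.34% of all tested genes were called higher and 0.174% lower. These were C1qb (log2 fold change 0.83 ± 0.10; edgeR adjusted p = 0.000457), C1qc (0.76 ± 0.12; 0.00255), C4b (1.01 ± 0.15; 0.00173), C5ar1 (1.84 ± 0.32; 0.0052), C3 (1.73 ± 0.40; 0.04) and C3ar1 (0.79 ± 0.18; 0.0432). C1qa (0.66 ± 0.18; edgeR adjusted p = 0.0779), Serping1 (0.43 ± 0.14; 0.136) and C1ra (0.59 ± 0.26; 0.242) were not called. C1qb, C1qc, C4b and C5ar1 were called in all 23 alternative analyses of this average, C3ar1 in 13, C3 in 11, C1qa in 8, Serping1 in 5 and C1ra in 1. Without THC_LPS replicate 3 8 of 9 were called, all but C1ra, against 2.54% of all tested genes, and without Veh_LPS replicate 2 the count was 5 of 9, with C3 lost (1.53; edgeR adjusted p = 0.12), against 0.791%. This average uses the same libraries as the comparisons above and is no separate evidence.

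The third question was whether adolescent THC alone left these genes at another level. None of the 9 members was called between THC_Ctrl and Veh_Ctrl (edgeR adjusted p = 1 for each, rounded), 0 of 9 reached an unadjusted p under 0.05 (1.71% of all tested genes did so as higher and 1.91% as lower), and 0% of all tested genes were called. DESeq2 called 0 of the 9 as well, with 0.0509% of all genes higher and 0.00391% lower, as did limma-voom with sample weights (0.209% higher and 0.354% lower). Log2 fold changes were -0.05 ± 0.15 for C1qb, 0.04 ± 0.17 for C1qc and 0.08 ± 0.25 for C1qa. They ran from -0.20 ± 0.27 for C3ar1 to 0.67 ± 0.60 for C3 over the members, with a median of 0.08, against -0.01 for all tested genes. Every THC_Ctrl library exceeded every Veh_Ctrl library for 2 members, C4b (32.1, 30.5 and 35.2 against 22.2, 24.3 and 29.5 CPM) and Serping1 (11.9, 10.9 and 10.2 against 8.44, 9.28 and 10.05 CPM), where 5.96% of all tested genes did so. Their log2 fold changes were 0.36 ± 0.21 and 0.24 ± 0.20.

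Among LPS-treated mice, those given THC had lower fitted levels of all 9 members than those given vehicle, but none of the 9 differences was called (edgeR adjusted p = 0.478 to 0.918), with 0% of all tested genes called. At an unadjusted p under 0.05, 7 of 9 were lower, all but C5ar1 and Serping1, against 4.59% of all tested genes, and DESeq2 (0.00391% of all genes in each direction) and limma-voom (0.00581% in each direction) called 0 of the 9. The median log2 fold change was -0.58 over the members and -0.00 over all tested genes. The differences were -1.57 ± 0.52 for C3, -0.87 ± 0.37 for C1ra, -0.68 ± 0.40 for C5ar1, -0.61 ± 0.21 for C4b and -0.58 ± 0.25 for C1qa. They were smaller for C3ar1 (-0.55 ± 0.25), C1qc (-0.43 ± 0.17), C1qb (-0.31 ± 0.15) and Serping1 (-0.05 ± 0.20), and that of Serping1 changed sign in several alternatives. Only C1qc had every THC_LPS library below every Veh_LPS library, against 6.12% of all tested genes. Without THC_LPS replicate 3 most of these differences shrank, and the members' median was -0.35. C1qa was then -0.24, C4b -0.35, C1qc -0.26, C3 -1.18 and C1ra -0.63, while C5ar1 was -0.89 and Serping1 0.09. With Veh_LPS replicate 2 left out as well, the median was -0.26, with C3 at -0.77, C1ra at -0.42 and C4b at -0.25. Leaving out Veh_LPS replicate 2 alone gave a median of -0.60. Over all 24 alternatives C3 ranged from -2.24 to -0.77, C4b from -0.88 to -0.25 and C1qa from -0.97 to -0.24, and none of the 9 members was called in any.

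Whether the LPS difference itself depended on the pretreatment was tested by the interaction, which uses all 12 libraries. All 9 estimates were negative, meaning a smaller LPS difference after THC, though those of C1qb, Serping1 and C5ar1 each turned positive under at least 1 alternative, and none was called (edgeR adjusted p = 0.71 to 0.817) and 0% of all tested genes were called. The median was -0.50 over the members and -0.00 over all tested genes, and 3 members (C3, C4b and C1ra) had an unadjusted p under 0.05, against 2.71% of all tested genes on the lower side. C4b had the smallest p, with an interaction of -0.97 ± 0.30 on the log2 scale (unadjusted p = 0.00534 in edgeR's quasi-likelihood test, adjusted p = 0.71), and C3 the largest estimate, -2.24 ± 0.79. Without THC_LPS replicate 3 the members' median interaction was -0.34, with C4b at -0.72, C3 at -1.86 and C1qa at -0.34 in place of -0.66. The median was -0.52 without Veh_LPS replicate 2 and -0.44 without both libraries. DESeq2 called 0 of the 9 (0% of all genes higher, 0.00391% lower), and limma-voom called 0 (0%). That 5 members passed the test after vehicle and 0 after THC is therefore no shown difference between the pretreatments.

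THC_LPS replicate 3, the library with the GC trend, bears on each comparison that involves THC_LPS. The members' transcripts had a GC content of 43.0% in C3ar1 to 59.5% in C1qa, with 57.4% in C1qb and 57.5% in C1qc. With each library's GC and length trends removed, the difference of THC_LPS from Veh_LPS was smaller for the C1q genes, at -0.03 in place of -0.31 for C1qb, -0.16 in place of -0.43 for C1qc and -0.33 in place of -0.58 for C1qa. It was close to its former value for C3 (-1.52), C1ra (-0.83), C5ar1 (-0.68) and C4b (-0.52), was -0.73 in place of -0.55 for C3ar1, and turned to 0.08 for Serping1. The members' median was -0.52, against -0.58 before. The interaction changed in the same fit to 0.05 from -0.26 for C1qb, to -0.18 from -0.47 for C1qc and to -0.57 from -0.35 for C3ar1, while C4b (-0.90) and C3 (-2.20) moved little and the median was -0.51. No member was called for either comparison with the trends removed or without THC_LPS replicate 3.

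The ratios of the C1q chains within a library show how far that library stands apart. C1qa reads per C1qb read were 1.06 to 1.37 in 11 libraries and 0.561 in THC_LPS replicate 3. Removing the GC and length trends moved that value to 0.62, while the other 11 stayed at 1.06 to 1.37. C1qc reads per C1qb read were 0.699 to 0.786 in the same 11 libraries and 0.601 in THC_LPS replicate 3. Across saline and LPS the 11 libraries thus held C1qc to C1qb in a narrow range of ratios, and C1qa to C1qb in a wider one. The summed level of the 3 chains ran from 87.0 to 112 CPM in the 6 saline libraries and from 185 to 195 CPM in Veh_LPS. It was 186, 133 and 97.6 CPM in THC_LPS.

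**Figure D3:**
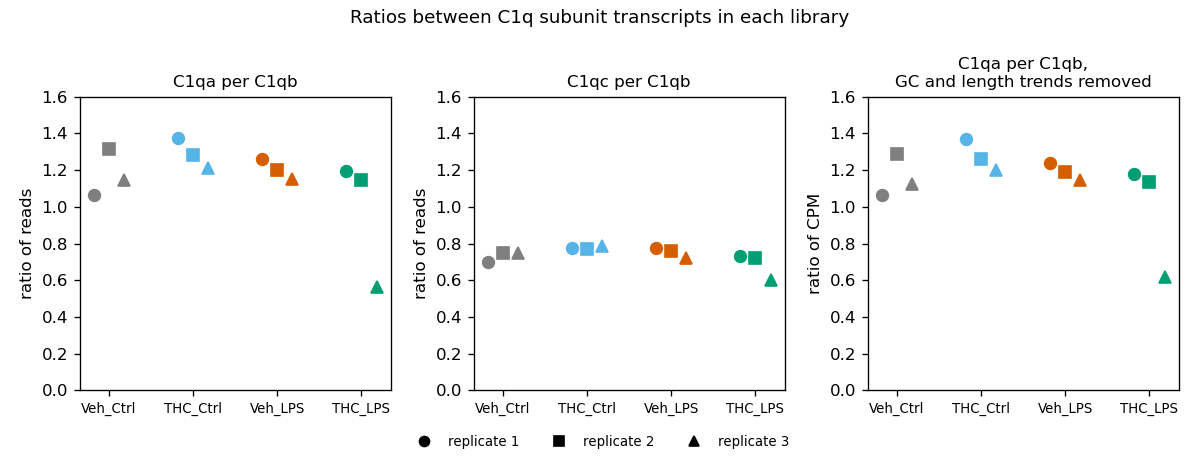
Reads of C1qa and of C1qc per read of C1qb (vertical axis, a ratio) in each of the 12 libraries, by group (horizontal axis), with the C1qa ratio shown again after the GC and length trends were removed. THC_LPS replicate 3 is the lowest point for both ratios, at 0.561 and 0.601, and stays lowest at 0.62 in the third panel.

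C1q genes are markers of microglia, so their levels were also set against 12 other microglia genes that hold no member. Their summed level was 277 to 300 CPM in Veh_Ctrl, 279 to 333 in THC_Ctrl, 320 to 386 in Veh_LPS and 327 to 365 in THC_LPS. Of the 12, 1 was called higher after vehicle then LPS (Olfml3, log2 fold change 0.87 ± 0.15; edgeR adjusted p = 0.0121) and 0 after THC then LPS, and their median log2 fold changes were 0.22 and 0.04. Averaged over pretreatment, 2 of the 12 were called higher, against 1.34% of all tested genes. These were Olfml3 (log2 fold change 0.69 ± 0.11; edgeR adjusted p = 0.00255) and Fcrls (0.60 ± 0.10; 0.00568), and the median of the 12 was 0.13. Relative to the mean of the 12 log2 levels, C1qb was 0.75 to 0.92 higher in Veh_Ctrl and 1.37 to 1.81 higher in Veh_LPS. C1qc was 0.33 to 0.40 higher in Veh_Ctrl and 1.01 to 1.41 higher in Veh_LPS, and C1qa 1.01 to 1.14 and 1.71 to 2.07 higher. The C1q genes thus stood higher in Veh_LPS than in Veh_Ctrl also against the mean of these markers, with no overlap. The share of all tested genes that separate on this scale was not computed. For LPS after vehicle the 12 markers themselves ran from -0.77 ± 0.34 (Gpr34) to 0.87 ± 0.15 (Olfml3) in log2 fold change. Whether their mean follows the number of microglia was not tested. In the THC groups C1qb stood 0.64 to 0.87 above the marker mean with saline and 1.07 to 1.58 with LPS, again with no overlap, while C1qa (1.10 to 1.21 and 0.24 to 1.84) and C1qc (0.27 to 0.53 and 0.34 to 1.14) overlapped. Both overlaps came from THC_LPS replicate 3, the library with the GC trend, at 0.24 for C1qa and 0.34 for C1qc. Replicates 1 and 2 lay above the THC_Ctrl range, at 1.84 and 1.42 for C1qa and 1.14 and 0.76 for C1qc.

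**Figure D4:**
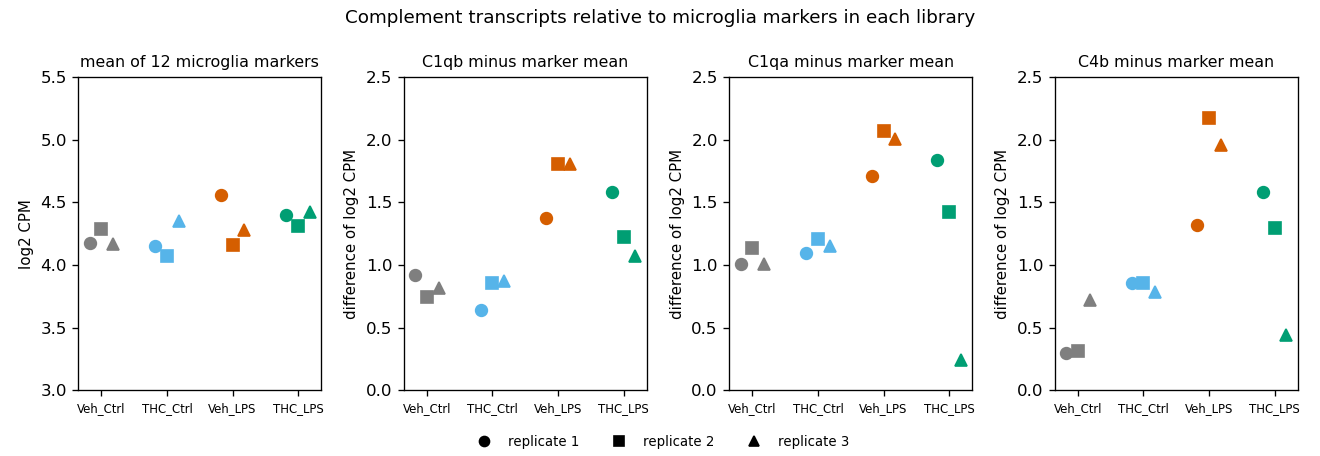
Mean log2 CPM of 12 microglia marker genes, and log2 CPM of C1qb, C1qa and C4b minus that mean (vertical axes), in each library by group (horizontal axis). The Veh_LPS libraries lie above the Veh_Ctrl libraries for C1qb, C1qa and C4b, and the lowest THC_LPS point of C1qa is at 0.24.

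Markers of other cells that can carry complement transcripts moved with LPS in part. Of 8 genes of blood monocytes and neutrophils, 7 could be tested, and 2 rose after vehicle then LPS, Ly6c2 (log2 fold change 3.67 ± 0.73; edgeR adjusted p = 0.0296) and Plac8 (3.47 ± 0.62; edgeR adjusted p = 0.0131), and 1, Plac8, after THC then LPS. Among all tested genes 0.622% and 0.0988% were called higher in these comparisons. The uncalled genes of the list ran from -0.69 ± 0.69 (Ltf) to 1.79 ± 0.62 (S100a8) after vehicle. After THC they ran from -0.98 ± 0.81 (Ngp) to 3.10 ± 0.68 (Ly6c2). The sum of the 8 genes was 1.73 to 3.03 CPM in Veh_Ctrl, 2.01 to 3.84 in THC_Ctrl, 4.40 to 7.60 in Veh_LPS and 3.58 to 8.07 in THC_LPS, so single genes rest on few reads. For 7 genes of border-associated macrophages, 0 of 7 were called, and their sum was 10.5 to 13.7, 11.2 to 12.4, 12.6 to 17.8 and 16.2 to 20.1 CPM in the same groups. For 6 genes of meningeal fibroblasts, 0 of 6 were called, with sums of 72.2 to 79.0, 87.7 to 108, 61.0 to 105 and 67.5 to 93.3 CPM. For 5 endothelial genes the sum was 208 to 212 CPM in Veh_Ctrl, 182 to 200 in THC_Ctrl, 225 to 251 in Veh_LPS and 221 to 258 in THC_LPS, so that the LPS groups lay above their saline groups without overlap. None of the 5 was called for LPS after either pretreatment, and 1, Pecam1, which encodes an adhesion protein of endothelial and blood cells, was called higher averaged over pretreatment (log2 fold change 0.56 ± 0.11; edgeR adjusted p = 0.0105). Other sums were separate after only 1 pretreatment, again higher with LPS. These were microglia and monocytes and neutrophils after vehicle, and border-associated macrophages and astrocytes after THC. How often sums of other genes separate was not computed. Of 6 astrocyte genes and 5 of the choroid plexus, 0 were called in any comparison. The astrocyte median log2 fold change was -0.22 for LPS after vehicle, -0.04 for LPS after THC, 0.15 for THC with LPS and 0.26 for the interaction. The choroid plexus median was 0.40, -0.06, -0.19 and -0.46 in the same order. No marker of these lists was at 0 in any whole group, and the part of these cells in the complement differences was not tested.

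Beyond the 9 members, 49 other complement genes were listed, of which 44 occur in the files and 31 had enough reads to be tested. For LPS after vehicle, 2 of the 31 were called higher and 0 lower: Itgam and Itgb2, the chains of complement receptor 3, which binds cleaved C3 on its targets. Among all tested genes 0.622% were called higher and 0% lower. Itgam stood at 16.2, 18.4 and 21.2 CPM in Veh_Ctrl and at 35.3, 32.2 and 37.0 CPM in Veh_LPS, with separate groups, and its log2 fold change was 0.91 ± 0.15 (edgeR adjusted p = 0.0072). Itgb2 stood at 4.12, 5.14 and 5.15 CPM in Veh_Ctrl and at 7.69, 9.93 and 10.3 CPM in Veh_LPS, also separate, and its log2 fold change was 0.96 ± 0.20 (edgeR adjusted p = 0.0344). The median log2 fold change of the 31 was 0.16, against -0.04 for all tested genes.

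After THC, 0 of the 31 were called, where 0.0988% of all tested genes were called higher and 0.0116% lower. The smallest p belonged to Cd93, a surface protein of endothelial and myeloid cells once thought to bind C1q (log2 fold change 1.13 ± 0.25; edgeR adjusted p = 0.0773), followed by Itgam (0.67 ± 0.15; 0.0824). Averaged over pretreatment, 4 of the 31 were higher, where 1.34% of all tested genes were called higher and 0.174% lower. Among the 4 were Itgam (log2 fold change 0.79 ± 0.11; edgeR adjusted p = 0.00075), Cd93 (1.04 ± 0.17; 0.00413) and Itgb2 (0.64 ± 0.14; 0.0311). None of the 31 was called for THC without LPS, where Cfp, Csmd3 and C4a had the smallest p (log2 fold changes 0.40 ± 0.16, 0.31 ± 0.15 and 0.55 ± 0.34). None was called for THC with LPS, where Csmd3 (0.46 ± 0.15), Ptx3 (1.15 ± 0.47) and Itgb2 (-0.45 ± 0.19) came first, nor for the interaction, where Cfp (-0.54 ± 0.22), Itgb2 (-0.63 ± 0.28) and C1s1 (-1.25 ± 0.56) came first.

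Over 14727 genes averaging 1 CPM or more, the genes whose log2 levels ran most alike with each member over the 12 libraries were found by Pearson's r, given as a description, since the libraries share groups and depth. No trend was removed, and THC_LPS replicate 3, the library with the GC trend, is among the 12. How far that library shapes these values was not tested. The nearest gene to C1qb was C1qc (r = 0.976), followed by Gbp2 (0.972), an interferon-induced GTPase, and Lgals9 (0.969), and C1qc was next nearest to H2-K1 (0.963), a class I antigen-presenting molecule, and Lgals3bp (0.96). C1qa lay nearest to Tapbp (0.94), H2-T23 (0.939) and Tspo (0.935). C4b lay nearest to Nlrc5 (0.972), a regulator of class I genes, Pik3ap1 (0.97) and H2-K1 (0.969). C3 lay nearest to Arhgef10 (0.95), Pik3ap1 (0.944) and Uba7 (0.941). C5ar1 lay nearest to Trim30a (0.971), Irgm1 (0.95) and Apbb1ip (0.949), and C3ar1 to Ctss (0.929), Tnfrsf1b (0.918) and Arhgdib (0.908). C1ra lay nearest to Ggt5 (0.925), Igdcc3 (0.903) and Cxcl16 (0.892). Serping1, nearest to Igsf9 (0.879), Tmem106a (0.874) and Tep1 (0.871), had the smallest top r of the 9 members.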

How the data were processed

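Per the labels' protocols, RNA came from a TRIzol extraction with column clean-up. Build mm10 and the tools DESeq2, HTSeq and STAR 2.5 are listed, without roles, per the submitters' processing notes. Not given in the sources used here are strandedness, the annotation version and what was done with multi-mapping reads. Per the file headers, the authors deposited a raw read count for each gene, on which every test was run. The deposited FPKM, named so per the file headers, was found from the values to be the reads per gene length and file total. Per the file headers, 1 table also holds an adjusted p-value of the authors, which a DESeq2 fit to the 6 THC libraries alone (THC_LPS versus THC_Ctrl) returned within 0.01.

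The tables were joined by gene ID, with an absent gene taken as 0 reads (24562 genes listed for vehicle, 24274 for THC). EdgeR 4.0.16 in R 4.3.3 fitted all 12 libraries with a mean per group, TMM scaling, its default expression filter and robust quasi-likelihood dispersions. The SE, an approximation, is the size of the log2 fold change over the root of its quasi-likelihood F. Relative and likeness values used log2 CPM with a prior count of 2. Counts of every pair of libraries within a group differed by more than sampling noise (chi-square per degree of freedom at least 11.2).

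The members and lists were chosen with earlier results of these data known. Every member is described in every comparison; other complement genes are named where called, and otherwise the 3 with the smallest p, except 1 gene that is not reported here. The alternatives were DESeq2 1.42.0, no low-count filter, 1 CPM in 3 libraries, median-ratio size factors, sample-weighted voom (limma 3.58.1), a fit restricted to the 2 groups compared, a replicate block, each library left out, the pair of Veh_LPS replicate 2 and THC_LPS replicate 3 left out, and loess trends (span 0.5) on GC content, length or both removed (GC known for 99.3% of tested genes). The trends combined with the block were added after seeing the data.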

Additional observations from a re-analysis of the deposited data

How the results depend on the processing

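Percentages here are the shares of all tested genes called higher in the same fit. Of the 9 members, 5 were called for LPS after vehicle (0.622%), and limma-voom with sample weights called 8 (5.18%). Leaving out each library gave 2 to 6, with 2 without Veh_Ctrl replicate 1 (0.187%), Veh_Ctrl replicate 2 (0.221%) or Veh_LPS replicate 3 (0.244%). It was 3 when replicate 2 of Veh_LPS was dropped (0.279%), and 6 when THC_LPS lost its replicate 1 (0.642%) or 3 (1.05%). For LPS after THC, where 0 were called (0.0988%), DESeq2 called 2 (2.08%), voom 4 (3.16%), no filter 1 (0.505%), GC removal 2 (0.424%), length removal 1 (0.122%) and both removals 2 (0.976%). Leaving out single libraries gave 0 to 2 there, with 2 without THC_LPS replicate 3 (0.119%), and leaving out both that library and Veh_LPS replicate 2 gave 2 (0.12%). Averaged over pretreatment the count was 6 (1.34%), and over all alternatives run it ranged from 4 (0.721% without THC_Ctrl replicate 2) to 9 (10.3% under voom). THC without LPS, THC with LPS and the interaction stayed at 0 members under every alternative run. The fit of only the compared groups was not run for the interaction and the average, which use all groups. The causes were not tested.

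With the replicate number as a block, 4 members were called for LPS after vehicle (0.5%; C3 was lost, edgeR adjusted p = 0.0565), 0 for LPS after THC (0.0814%), 0 for either THC comparison and the interaction, and 4 for the average (1.05%). The block with both trends removed, added after seeing the data, called 2 for LPS after THC (0.511%). Deviations of same-numbered libraries correlated at -0.156 to 0.101, so the numbers were not taken to pair them.

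Log2 fold changes near 0 changed sign, and the causes were not tested. C1ra for LPS after THC was 0.0109 under DESeq2, 0.0372 under voom, 0.0066 with median-ratio factors, 0.0098 with the 1 CPM filter, 0.0306, 0.0379 and 0.0602 with GC, length and both trends removed, 0.2478 with both libraries left out, 0.06 with trends and block, and -0.4093 to 0.2467 leaving out single libraries. For the same comparison single libraries left out gave -0.0538 to 0.6928 for C1qa and -0.0589 to 1.0291 for C3. For THC without LPS they gave -0.0011 to 0.1676 for C1qa, -0.1784 to 0.0461 for C1qb, -0.1009 to 0.1356 for C1qc and -0.8317 to 0.1993 for C5ar1. Serping1 for THC with LPS was 0.0794 under voom, 0.0303, 0.0364 and 0.0758 with GC, length and both trends removed, 0.2613 with both libraries left out, 0.0723 with trends and block, and -0.2941 to 0.1141 leaving out single libraries. For the interaction, C1qb was 0.0474 with both trends removed and 0.0553 with trends and block, Serping1 0.0053 with both libraries left out, and C5ar1 -0.8763 to 0.1541 leaving out single libraries.

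C3 and C5ar1 rest on 5 to 44 reads per saline library, so their fold changes are the least precise. With 3 libraries a group, an uncalled difference is not shown to be absent.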
